A study of Mus musculus with 152 samples.

Results

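The endoplasmic reticulum (ER) chaperone programme was followed in mouse liver through 10 genes: Xbp1, Hspa5, Hsp90b1, Pdia4, Pdia6, Dnajb9, Herpud1, Sdf2l1, Creld2 and Manf. These 10 genes were chosen by symbol for their known place in the unfolded protein response, and all 10 were present among the 54532 genes of the deposited tables. They lie on mouse chromosomes 2 (Hspa5), 6 (Pdia4), 8 (Herpud1), 9 (Manf), 10 (Hsp90b1), 11 (Xbp1), 12 (Pdia6 and Dnajb9), 15 (Creld2) and 16 (Sdf2l1). The RNA came from livers of inbred C57BL/6J mice. From an age of 8 weeks the mice ate LIDPAD, which induces non-alcoholic fatty liver disease (NAFLD), or a purified control diet, for a duration of 1, 4, 8, 12, 16, 32 or 48 weeks. No genetic change or drug is named in the labels, so the 14 groups differed in diet and in feeding time, and time on diet and age cannot be told apart. The 152 deposited samples were merged, 4 matching columns at a time, into 38 libraries (18 control, 20 LIDPAD). Each diet had 2 libraries at weeks 1, 4, 8 and 12 and 3 at week 16. Week 32 had 4 control libraries against 5 on LIDPAD, and week 48 had 3 against 4. No label states that separate animals were used, so the p-values describe library-to-library spread and that spread may be technical.

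The ER folds and modifies secreted and membrane proteins, and the hepatocyte, which secretes most plasma proteins, has much of it. When unfolded proteins accumulate in the ER lumen, the sensors IRE1, ATF6 and PERK become active. IRE1 splices the Xbp1 transcript, ATF6 is cut to release a transcription factor, and both raise the transcription of chaperones, oxidoreductases and factors that remove misfolded proteins. PERK lowers general translation and favours translation of ATF4.

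Transcription in this response is known to act through ER stress response elements in promoters, and the promoter letters are therefore shown before the expression values. A window was found for 9 of the 10 genes in the RefSeq promoter table (assembly GRCm38.p6, 250 bases before to 50 bases after the start). The ER stress response element (ERSE, searched on both strands as CCAAT, then 9 bases of any kind, then CCACG) was found in 4 of these 9 windows and in 39 of all 32851 windows, which is 0.119%. The shorter ERSE-II (ATTGG, 1 base of any kind, CCACG) was found in the Herpud1 window and in 0.0365% of all windows. The letters of the UPRE (TGACGTGG, in 0.676% of all windows) and of the cyclic AMP response element (TGACGTCA, in 1.79%) were in 0 of the 9 windows. The single parts CCAAT and CCACG, which also make up the longer elements, were each in 8 of the 9 windows, beside 37.4% and 32.8% of all windows. The stretches below show the complete elements, printed 5′ to 3′ along the gene's strand with the element in capitals.
Hspa5, ERSE: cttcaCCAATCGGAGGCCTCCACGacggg
Herpud1, ERSE-II: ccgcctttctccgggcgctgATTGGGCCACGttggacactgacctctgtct
Hsp90b1, distal ERSE: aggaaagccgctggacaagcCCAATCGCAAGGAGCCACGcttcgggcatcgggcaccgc
Hsp90b1, proximal ERSE on the opposite strand: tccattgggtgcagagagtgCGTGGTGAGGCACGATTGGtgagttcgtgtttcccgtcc
Pdia6, ERSE: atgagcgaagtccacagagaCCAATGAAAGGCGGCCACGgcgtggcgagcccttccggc
Creld2, ERSE on the opposite strand: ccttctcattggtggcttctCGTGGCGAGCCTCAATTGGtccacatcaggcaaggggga
The Hspa5 stretch lies at chr2:34772020-34772048 on the plus strand and overlaps an annotated exon, and the others overlap no annotated exon. The Herpud1 stretch lies at chr8:94386357-94386407 (plus), the Hsp90b1 stretches at chr10:86705618-86705676 and chr10:86705513-86705571 (minus), the Pdia6 stretch at chr12:17266471-17266529 (plus) and the Creld2 stretch at chr15:88819500-88819558 (plus). A match is a description of the letters and not a measurement of binding, and no match says only that these letters are not in this window. The genes were chosen for their known place in this response, so their matches are no independent support for it.

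**Figure D1:**
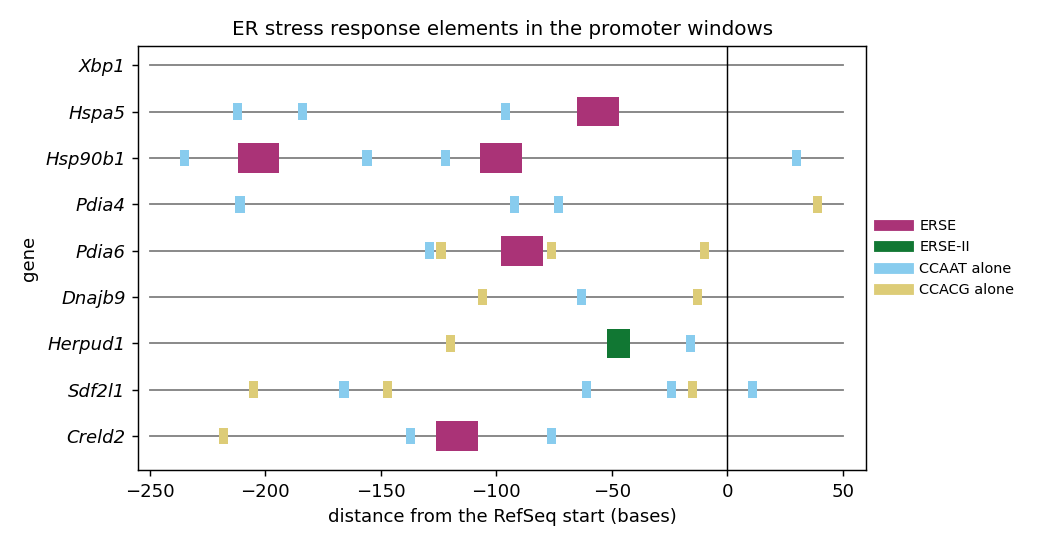
ER stress response elements in the promoter windows of 9 of the genes. The x axis is the distance from the RefSeq start in bases, each grey line is a window from 250 bases before to 50 bases after the start, and coloured boxes are matches on either strand. Hspa5, Hsp90b1, Pdia6 and Creld2 hold a complete ERSE, with 2 in Hsp90b1, and Herpud1 holds the ERSE-II.

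Values are FPM, which are read counts per gene divided by a size factor per column, per 1000000, averaged over the 4 columns of a library. Depth per library was 10.9 to 53.8 M reads (M is 1000000), and 10.9 to 32.8 M at week 32. Log2 changes are LIDPAD minus control on the log2(FPM + 0.5) scale, given ± SE, and they understate changes of low genes. Adjusted p-values come from limma fitted over all genes of a week with Benjamini-Hochberg adjustment, and a gene under 0.05 is described as having risen or fallen. The tables were normalized separately by week, so tests compare diets within a week.

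The genes differed widely in abundance. Per kilobase of annotated exon over the 38 libraries, the median level was 157 FPM per kb for Hspa5, the most abundant ER chaperone of the HSP70 family (BiP), which ranked first in 34 of the 38 libraries. Median levels per kb were 102 for Herpud1, a membrane protein of ER-associated degradation, 92.1 for Hsp90b1, the ER member of the HSP90 family (GRP94), and 85.8 for Pdia4, a protein disulfide isomerase. The ranges of Herpud1, Hsp90b1 and Pdia4 overlapped, and the rank of Herpud1 ran from 1 to 5. Pdia6, another disulfide isomerase, had a median of 44.2 FPM per kb and Xbp1 of 38.2. Creld2 (17.4), Dnajb9 (17.4), Sdf2l1 (14.9) and Manf (13.5) formed the lower end, and their ranks crossed between libraries. These levels set genes side by side across tables that were normalized apart.

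Between the diets, 1 of the 10 genes passed the test at week 1 and 1 at week 16, both higher in LIDPAD livers, and most calls were falls at weeks 32 and 48. At week 32 all 10 had a lower mean log2 level in LIDPAD than in control livers, and 8 of 10 fell past the test, beside 8.82% of all genes tested that fell in that week. At week 48 all 10 were again lower, and 4 of 10 fell, beside 3.34% of all genes tested. The median log2 change over the 10 genes was -0.09, 0.06, -0.20, 0.21 and -0.01 from week 1 to week 16, then -0.90 at week 32 and -0.47 at week 48. The median over all genes tested was between -0.01 and 0.04 in every week. Since liver tissue was sequenced, fewer cells of a type and less RNA per cell cannot be told apart.

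**Figure D2:**
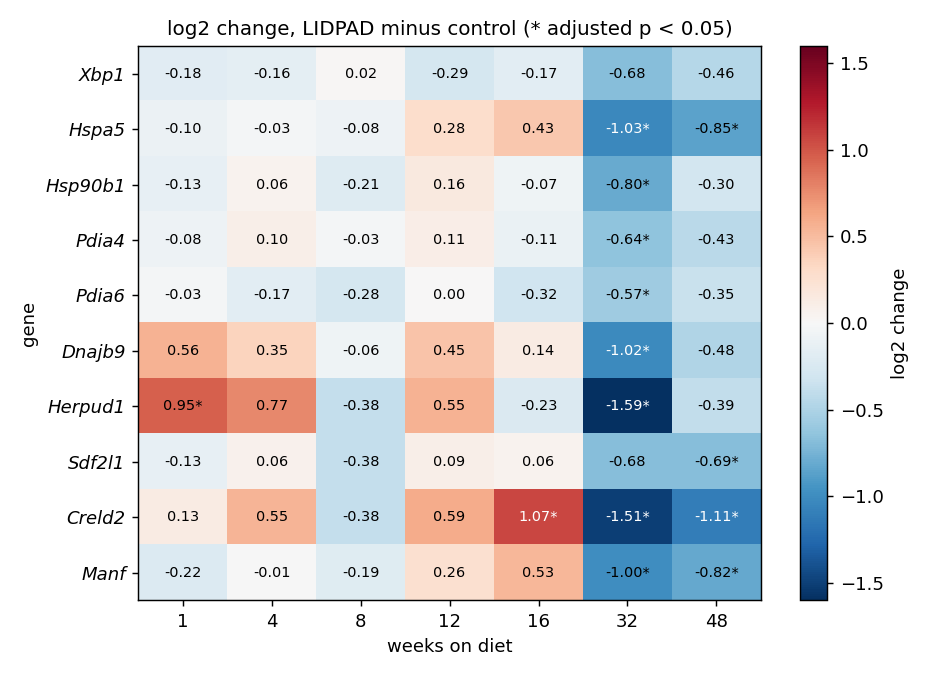
Log2 change of each gene (rows) at each feeding time in weeks (columns), LIDPAD minus control. Colour and printed number give the change, and an asterisk marks an adjusted p under 0.05 in limma. The columns of weeks 32 and 48 hold negative values only, from -0.57 to -1.59 at week 32.

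The central chaperone Hspa5 changed by a fall at weeks 32 and 48. At week 32 the 4 control libraries read 817, 1171, 1212 and 2308 FPM, and the 5 LIDPAD libraries 527, 651, 577, 722 and 673 FPM. The groups did not overlap, and the control libraries spread far more than the LIDPAD libraries, with control library 4 highest. The means were 1377 ± 645 FPM (SD, n = 4) and 630 ± 77.8 FPM (SD, n = 5), a log2 change of -1.03 ± 0.27 (limma, adjusted p = 0.0155). Without control library 4 the change was -0.75, with an adjusted p of 0.0264 in limma. At week 48 the controls read 770, 950.5 and 644 FPM and the LIDPAD libraries 445, 407, 421 and 451 FPM, again without overlap. The log2 change was -0.85 ± 0.14 (limma, adjusted p = 0.0166). At week 16 the direction was opposite but did not pass the test: the controls read 872, 573 and 527 FPM and the LIDPAD libraries 873, 782 and 945 FPM, a log2 change of 0.43 ± 0.18 (limma, adjusted p = 0.0910). Control library 1 of week 16 lay among the LIDPAD values.

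Hsp90b1, which folds a narrower set of client proteins, fell at week 32 only among the 7 separate tests. Its control libraries read 419, 488, 611 and 946 FPM and its LIDPAD libraries 309, 291, 311, 396 and 386 FPM. The groups did not overlap by a small margin, and the log2 change was -0.80 ± 0.23 (limma, adjusted p = 0.0231). At week 48 the controls read 482, 527 and 301 FPM and the LIDPAD libraries 371, 329, 325 and 357 FPM, with control library 3 below every LIDPAD library. The log2 change there was -0.30 ± 0.19 (limma, adjusted p = 0.364).

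The disulfide isomerases Pdia4 and Pdia6, which form and rearrange disulfide bonds in client proteins, had the smallest falls among the 8 genes at week 32. Pdia4 read 249, 260.4, 309.8 and 369.6 FPM in controls and 178, 213, 159, 202 and 193 FPM in LIDPAD livers, a log2 change of -0.64 ± 0.15 (limma, adjusted p = 0.00945). Pdia6 read 195, 183, 243 and 256 FPM in controls and 139.6, 147, 137, 153 and 155 FPM in LIDPAD livers, a log2 change of -0.57 ± 0.13 (limma, adjusted p = 0.00851). In both genes every control library lay above every LIDPAD library. At week 48 control library 3 lay inside the LIDPAD range of each, and the log2 changes were -0.43 ± 0.17 for Pdia4 and -0.35 ± 0.18 for Pdia6, neither past the test.

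The co-factors of Hspa5 include Dnajb9 (ERdj4), a J-domain protein that stimulates its ATPase, and Sdf2l1, which binds ER J-domain proteins. Dnajb9 read 58.5, 101, 88.5 and 127 FPM in the week 32 controls and 31.1, 53.4, 53.9, 43.5 and 43.6 FPM in LIDPAD livers, without overlap. Its log2 change was -1.02 ± 0.22 (limma, adjusted p = 0.00669). Sdf2l1 read 19.2, 25.2, 32.8 and 27.0 FPM in the same controls and 10.5, 25.8, 18.6, 15.3 and 12.5 FPM in LIDPAD livers. Here LIDPAD library 2 lay among the controls, and the change of -0.68 ± 0.24 did not pass the test (limma, adjusted p = 0.0597). At week 48 Sdf2l1 fell, from 14.5, 20.2 and 14.8 FPM in controls to 11.0, 8.79, 8.88 and 11.3 FPM in LIDPAD livers, a log2 change of -0.69 ± 0.16 (limma, adjusted p = 0.0328). Dnajb9 at week 48 changed by -0.48 ± 0.16 and did not pass the test (limma, adjusted p = 0.104).

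Herpud1 had the largest fall of the 10 genes at week 32 and the only rise at week 1. Its week 32 controls read 341, 608, 576 and 489 FPM and the LIDPAD libraries 212, 281, 200.4, 87.7 and 108 FPM. The lowest control lay above the highest LIDPAD library, and LIDPAD libraries 4 and 5 were lowest. The log2 change was -1.59 ± 0.33 (limma, adjusted p = 0.00477). At week 1 it ran the other way, with 174 and 159 FPM in controls and 340.4 and 306 FPM in LIDPAD livers, a log2 change of 0.95 ± 0.11 (limma, adjusted p = 0.0111). It was the 1 gene of 10 that rose at week 1, beside 0.726% of all genes tested that rose and 1.27% that fell. This week 1 call rested on 2 libraries per diet. Its adjusted p was 0.131 without control library 1, 0.150 without control library 2, and 0.757 in the joint limma fit of all groups. At weeks 4 and 12 the log2 changes of Herpud1 were 0.77 ± 0.25 and 0.55 ± 0.19, with no overlap between diets, but the adjusted p-values in limma were 0.339 and 0.0859. At week 48 the controls ran from 137 to 299.8 FPM and enclosed all 4 LIDPAD libraries (144 to 176 FPM).

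Creld2 and Manf encode small ER-resident proteins that cells also secrete under ER stress, and both fell at weeks 32 and 48. Creld2 read 37.4, 65.1, 81.3 and 107 FPM in the week 32 controls and 18.6, 32.0, 29.3, 19.8 and 21.0 FPM in LIDPAD livers, a log2 change of -1.51 ± 0.28 (limma, adjusted p = 0.00258). At week 48 it read 17.5, 32.3 and 23.2 FPM in controls and 11.1, 9.99, 11.2 and 10.6 FPM in LIDPAD livers, a log2 change of -1.11 ± 0.19 (limma, adjusted p = 0.0164). The diets did not overlap at either time, and the LIDPAD libraries of week 48 lay close together.

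Manf read 60.9, 84.7, 105 and 118 FPM in the week 32 controls and 38.2, 41.9, 41.6, 52.8 and 50.2 FPM in LIDPAD livers, a log2 change of -1.0 ± 0.19 (limma, adjusted p = 0.00289). At week 48 its log2 change was -0.82 ± 0.18 (limma, adjusted p = 0.0292), from 56.6, 65.0 and 37.3 FPM in controls to 32.3, 28.3, 28.7 and 27.3 FPM in LIDPAD livers. Every control library of Manf lay above every LIDPAD library at both times.

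Creld2 was also the 1 gene of 10 that rose at week 16, beside 16.3% of all genes tested that rose and 12% that fell in that week. Its controls read 28.1, 10.9 and 11.1 FPM and its LIDPAD libraries 34.3, 28.9 and 34.0 FPM. Control library 1 lay just under the lowest LIDPAD library and far from the other 2 controls. The log2 change was 1.07 ± 0.29 (limma, adjusted p = 0.0164), and it was 0.86 and 0.85 without control library 3 or 2, with adjusted p-values of 0.0623 and 0.0551 in limma. The call was also lost without LIDPAD library 1 (adjusted p = 0.0572) or 3 (adjusted p = 0.0564) in limma, and DESeq2 gave an adjusted p of 0.122.

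Xbp1, the transcription factor of the IRE1 branch, was the 1 gene of 10 that passed the test in none of the 7 weeks. Its gene-level value does not separate the spliced from the unspliced transcript. At week 32 the controls read 121, 157, 159 and 332 FPM and the LIDPAD libraries 118, 108, 98.1, 122 and 109 FPM. Control library 1 lay within the LIDPAD range, and control library 4 stood above every other library of that week. The log2 change was -0.68 ± 0.24 (limma, adjusted p = 0.0584) and was -0.38 without control library 4. At week 48 the change was -0.46 ± 0.16 (limma, adjusted p = 0.0993).

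**Figure D3:**
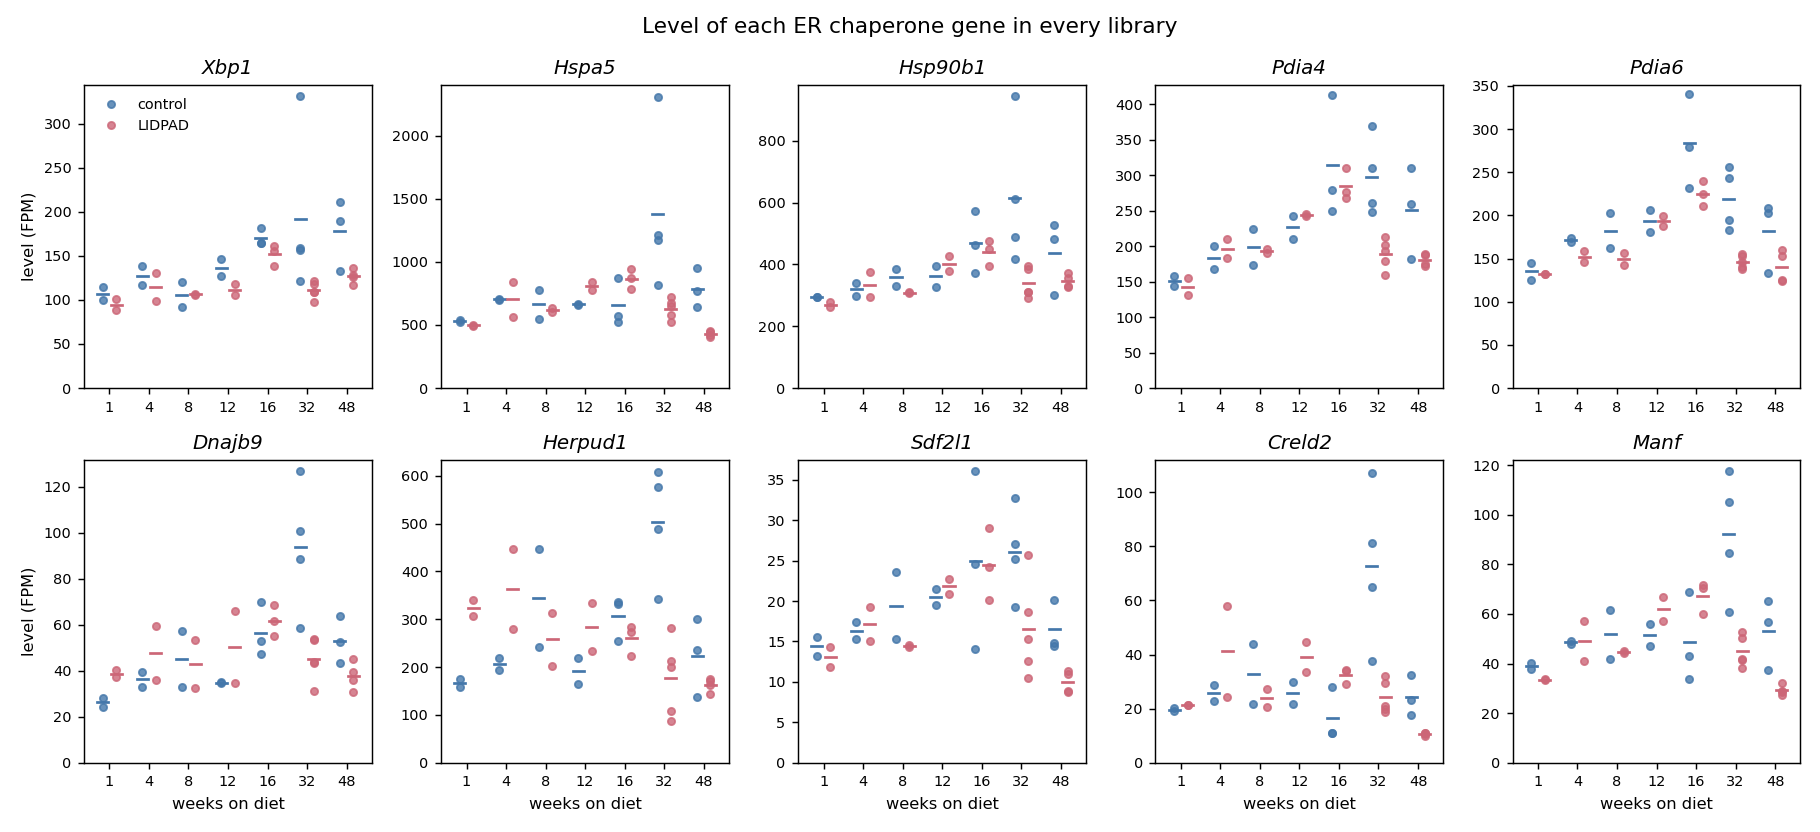
Level of each gene in every library in FPM (y axis, linear from 0) against weeks on diet (x axis, not to scale). Each point is 1 library, blue for control and red for LIDPAD, and a bar marks the group mean. At week 32 the blue points are spread and mostly high, with control library 4 at 2308 FPM for Hspa5, while the 5 red points of that gene lie between 527 and 722 FPM.

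At weeks 4, 8 and 12, 0 of the 10 genes passed the test in limma, beside 0.287%, 5.6% and 15.2% of all genes tested that were called. Unadjusted p-values were under 0.05 for Herpud1 at week 4, for none of the 10 at week 8, and for Xbp1, Hspa5, Herpud1 and Creld2 at week 12. With 2 libraries per diet these weeks separate large changes only. Counted by groups that did not overlap, 8 of the 10 genes were lower in LIDPAD livers at week 32, beside 8.8% of all genes tested. The same count was 4 of 10 at week 48, beside 10.7%.

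The difference in the diet effect between weeks was itself tested in a joint limma fit of all 38 libraries. By the F test over the 7 weekly effects, 5 of the 10 genes were called, beside 10.8% of all genes tested. Adjusted p-values in limma were 0.00994 for Hspa5, 0.0239 for Dnajb9, 0.00413 for Herpud1, 0.00244 for Creld2 and 0.00638 for Manf. A contrast took the mean effect of weeks 16, 32 and 48 minus that of weeks 1, 4, 8 and 12. It ran from -1.21 for Herpud1 to -0.29 for Xbp1. It passed the test as lower in 3 of 10 genes, beside 6.19% of all genes tested. These were Herpud1 (-1.21 ± 0.26, limma, adjusted p = 0.00277), Dnajb9 (-0.78 ± 0.22, adjusted p = 0.0147) and Pdia4 (-0.42 ± 0.14, adjusted p = 0.0424). Without control library 3 of week 48, 7 of 10 genes passed the test as lower in this contrast. Without any of several other libraries 2 of 10 did. Falls over all genes were not counted in these fits, so the counts have no share beside them. The earlier and later weeks also differ in the read-share classes described below.

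The labels name no sequencing run. The share of a library's reads that each of its 4 columns held fell into separate sets, called read-share classes here. What made the classes differ is not in the labels. At week 32 controls 1 to 3 and LIDPAD libraries 1 to 3 were of class B. Control 4 and LIDPAD libraries 4 and 5 were of class C. Within class B all 10 genes were lower in LIDPAD livers and 6 fell past the test. Log2 changes there were -0.85 for Hspa5, -1.11 for Herpud1, -1.15 for Creld2 and -1.0 for Manf. Within class C, with 1 control library and therefore no test, the same genes differed by -1.73, -2.32, -2.36 and -1.19. With the class as a term in the fit, 9 of 10 fell. Falls over all genes were not counted in these fits, so the counts have no share beside them. By the same measure all week 48 libraries were of class C and all week 16 libraries of class B. All libraries of weeks 1, 4, 8 and 12 were of class A, which held no library of weeks 16, 32 and 48. In the contrast of later minus earlier weeks, feeding time and class therefore cannot be told apart.

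Leaving out each library in turn left 7 to 10 genes called at week 32, and 8 without control library 4. At week 48 it left 0 genes called without any of the 4 LIDPAD libraries. There were 1 without control library 1, 2 without control library 2 and 10 without control library 3. Falls over all genes were not counted with a library left out, so these counts have no share beside them. The log2 changes at week 48 stayed below 0 in these 7 fits, from -0.99 to -0.71 for Hspa5, -0.77 to -0.54 for Sdf2l1, -1.32 to -0.88 for Creld2 and -1.05 to -0.65 for Manf, with adjusted p-values in limma of up to 0.0661, 0.103, 0.0627 and 0.101. LIDPAD libraries 4 and 5 of week 32 were far more alike than other pairs of that group, and whether they are separate samples is not stated. Some pairs of other groups were nearly as alike. Averaged as 1, which makes n = 4 LIDPAD libraries, 8 of 10 genes fell at week 32. The log2 changes were -1.07 for Hspa5 and -1.41 for Herpud1. Over all genes, 3492 were called in either direction in that fit, beside 3810 with the libraries kept apart. All 10 changes were below 0 at week 32 in each of the 24 alternatives tried. Dividing each library by its total count moved the median of all genes at week 32 to 0.33, and 4 of 10 genes then fell, beside 2.53% of all genes tested. On that scale the median of the 10 genes was -0.59, a difference of -0.92 from the median of all genes. With quantile normalization 5 of 10 fell, beside 12.4% of all genes tested, and the median of the 10 genes was -0.59, a difference of -0.49 from the median of all genes.

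Several other measurements differed between the diets in the same libraries, and their part in the fall was not tested. Over 10 hepatocyte markers, the summed level at week 32 was 87428 to 104078 FPM in controls and 34963 to 117506 FPM in LIDPAD livers, and 4 of 10 fell past the test, beside 8.82% of all genes tested. At week 48 it was 68841 to 90127 FPM and 29513 to 40144 FPM, and 4 of 10 fell, beside 3.34% of all genes. LIDPAD library 1 of week 32 held 92258 FPM of albumin (Alb), above each control, and 158 FPM of Jchain, a plasma cell gene, beside at most 5.47 FPM in the other week 32 libraries. Without that library 8 of 10 ER genes still fell, with log2 changes of -0.97 for Hspa5 and -1.69 for Herpud1. At week 16 the hepatocyte sums were 38719 to 47160 FPM in LIDPAD livers and 75844 to 91615 FPM in controls. In that week 7 of 10 hepatocyte markers fell, beside 12% of all genes tested. Alb can hold most of such a sum, as in LIDPAD library 1 of week 32, with 92258 of 117506 FPM.

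Markers of other cells rose. Of 10 macrophage markers, 8 rose at each of weeks 8, 12, 16, 32 and 48, with 1 falling at week 48, beside 3.85%, 8.99%, 16.3%, 18% and 6.54% of all genes tested that rose in those weeks. Their summed level at week 32 was 125 to 248 FPM in controls and 609 to 2515 FPM in LIDPAD livers. Of 10 stellate cell and fibroblast markers, 7 rose at week 32 and 8 at week 48. Plasma and B cells carry much ER. Their 12 markers summed to 112 to 154 FPM in the week 32 controls and 162 to 2460 FPM in the LIDPAD livers. The medians were 146 and 174 FPM. At week 48 the sums were 163 to 193 FPM and 258 to 548 FPM. The marker Sdc1 can hold most of such a sum. In the week 4 controls its mean was 126 FPM, beside a median sum of 139 FPM and a Jchain mean of 0.56 FPM. The sums are therefore no measure of plasma cell content. Pancreatic acinar cells also carry much ER: 1 of their 14 markers passed the filter on low values, 9 were at 0 in every library of each diet at week 32, and the sum was at most 24.6 FPM in any week 32 library.

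Genes of the circadian clock differed as well. Arntl and Dbp are clock genes that peak at opposite times of day. The mean of their log2 difference, Arntl minus Dbp, was lower in LIDPAD than in control livers at all 7 times. LIDPAD minus control was -4.29, -4.78, -3.86 and -3.20 at weeks 1 to 12, and -0.81, -1.01 and -2.41 at weeks 16, 32 and 48. The hour of collection is not in the labels. Its part in the ER values was not tested.

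The wider ER machinery was described by lists of known genes, whose counts stand beside 8.82% of all genes tested that fell and 18% that rose at week 32, and 3.34% that fell and 6.54% that rose at week 48. No test compares the lists with each other. Of 21 other ER folding factors tested, 10 fell and 1 rose at week 32, with a median log2 change of -0.35, and 7 fell at week 48, with a median of -0.43. The oxidoreductase Pdia5 fell at weeks 8, 12, 16, 32 and 48, with log2 changes from -0.45 to -0.71. The glycoprotein sensor Uggt1 changed by -0.50 and -0.61 at weeks 32 and 48, and the oxidase Ero1lb by -1.09 and -1.12, all past the test. Ppib, a prolyl isomerase, fell at weeks 16 (-0.70) and 32 (-0.60).

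Of 15 genes of ER-associated degradation, 9 fell at week 32 (median -0.44, beside 8.82% of all genes) and 5 at week 48 (median -0.38, beside 3.34%), and none rose at either time. Syvn1, the ubiquitin ligase HRD1, had the largest change among those named, -1.64 at week 32 (limma, adjusted p = 0.00117) and -0.99 at week 48 (adjusted p = 0.0217). Derl2, a channel component, fell at weeks 12, 16 and 32 (-0.45, -0.51 and -0.46), and Selenos fell at weeks 32 and 48 (-0.57 and -0.40). Derl3, a related gene that is also among the plasma cell markers, rose at week 12 (1.42) and fell at week 32 (-1.38).

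Of 25 genes of translocation into the ER and of N-glycosylation, 7 fell at week 32 (median -0.31, beside 8.82% of all genes) and 5 at week 48 (median -0.28, beside 3.34%). Sec61a1, the pore subunit, fell at both times (-0.41 and -0.39). Sec63 and Ssr4 fell at weeks 16 and 32, and Rpn1, a subunit of the oligosaccharyltransferase, at week 32 (-0.53).

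Of 6 genes for the sensors and for the proteases that cut ATF6, 1 fell at week 32 and 2 fell at week 48, and 0 rose. The median log2 change was -0.04 at both times, over genes with changes of either sign. Ern1, which encodes IRE1, fell at weeks 12, 16, 32 and 48, with log2 changes of -0.64, -0.67, -0.89 and -0.89. Atf6 fell at weeks 16 (-0.29) and 48 (-0.39). In the PERK and ATF4 list of 13 genes, 1 rose and 2 fell at week 32, and the median was -0.08. At week 48, 0 rose and 2 fell, and the median was -0.38. Atf4 itself fell at weeks 12, 16, 32 and 48 (-0.66, -0.55, -0.59 and -0.87). Atf3, a stress-induced transcription factor, rose at weeks 8, 12 and 16 (1.23, 1.88 and 2.61), and Slc7a11, the cystine transporter, rose at weeks 16 and 32 (1.23 and 2.63). Asns, asparagine synthetase, fell at weeks 16 and 48 (-1.27 and -2.09).

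The cytosolic heat shock genes, which serve the cytosol and not the ER, moved in both directions over time. Of 12 genes, 7 rose and 0 fell at week 16, with a median of 0.54, beside 16.3% of all genes that rose and 12% that fell. At week 32, 0 rose and 6 fell, with a median of -0.98, beside 18% and 8.82% of all genes. Hspa1b changed by 1.53 at week 16 and by -2.76 at week 32, and Hsph1 by 0.76 and -1.45, all past the test. Hsp90aa1 rose at weeks 8, 12 and 16 (0.84, 0.79 and 1.12), and its change of -0.58 at week 32 did not pass the test. Hspb1 rose at weeks 1, 8, 12, 16 and 48 (0.99, 1.83, 2.06, 2.35 and 1.33).

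**Figure D4:**
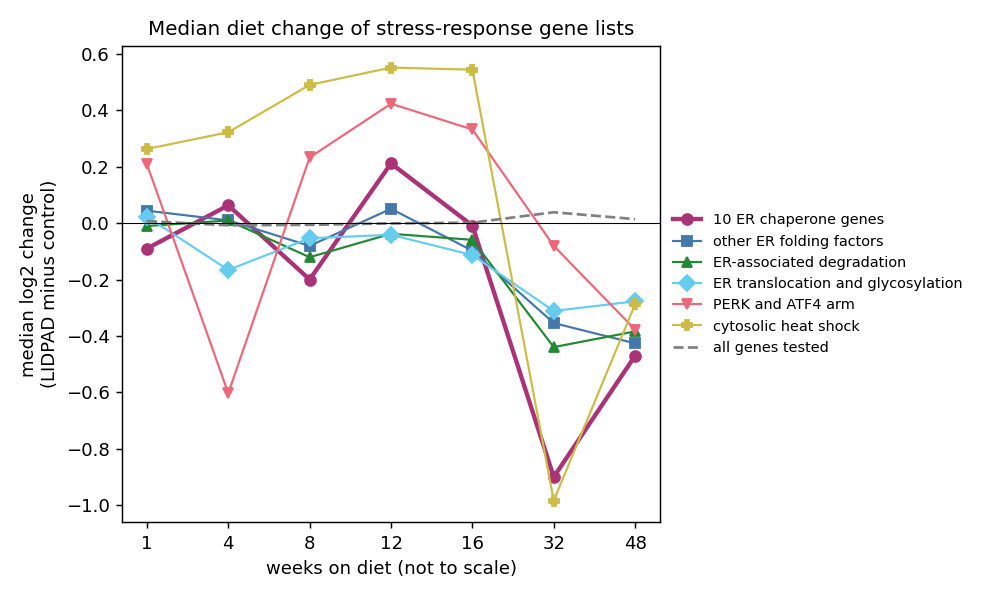
Median log2 change (y axis, LIDPAD minus control) of the 10 ER genes, of 5 further lists and of all genes tested, against weeks on diet (x axis, not to scale). Each marker is the median over the tested genes of a list. The ER lists lie near 0 up to week 16 and below 0 at weeks 32 and 48, with the 10 genes at -0.90 at week 32, while the cytosolic heat shock list goes from 0.54 at week 16 to -0.98 at week 32.

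Beyond diet, the 10 genes varied together from library to library. Each gene's log2 level was taken as its deviation from the mean of its own week and diet, over the 38 libraries, which share a normalization per week. Over the 45 pairs Pearson's r ran from 0.10 to 0.87 with a median of 0.59, 29 pairs were above 0.5 and 0 were below 0. Hspa5 was closest to the mean of the other 9 genes (r = 0.88), followed by Manf (0.83), Pdia4 and Creld2 (both 0.81). Herpud1 was farthest (0.45), and its lowest pair was with Hsp90b1 (0.10). The spread of these deviations was largest for Creld2 (SD 0.45) and Herpud1 (SD 0.43) and smallest for Pdia6 (SD 0.19), on the log2 scale. No p is given, since libraries of a group share their table and the control libraries of week 32 carry much of the spread. In groups of 2 libraries the deviations are mirror images of each other. Pairs of other genes were not set beside these values, so a trait particular to the 10 genes is not shown.

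**Figure D5:**
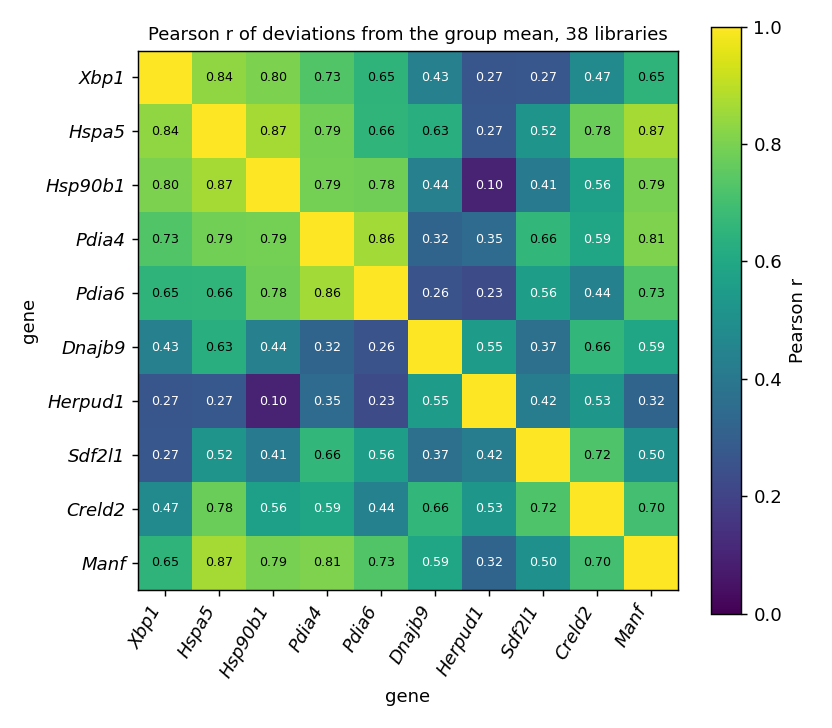
Pearson's r between the genes (rows and columns) of log2 level as deviation from the mean of the same week and diet, over 38 libraries. Colour and printed number give r. All pairs are above 0, from 0.10 for Herpud1 with Hsp90b1 to 0.87 for Hspa5 with Manf and with Hsp90b1.

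Among 6560 other genes with a mean of at least 10 FPM, those whose deviations were most like the mean of the 10 genes were ranked by the same measure over the 38 libraries. Dnajb11, an ER J-domain co-chaperone (r = 0.85), Hyou1, an ER chaperone of the HSP70 superfamily (0.81), and Calr, the lectin chaperone calreticulin (0.78), came first. Nr1d1, a clock repressor, came next (0.76), and Pdia3, Sel1l, Eif2a, Dnajc3, Spcs3 and Syvn1 followed with r from 0.76 to 0.70. Their log2 diet differences at week 32 were -0.69 for Dnajb11, -1.30 for Hyou1, -0.30 for Calr and 0.06 for Nr1d1.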

How the data were processed

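Liver RNA was extracted with TRIzol and columns, per the labels' protocols. The values in the 7 tables, 1 for each week, are a signal called FPM that the authors deposited: reads of a gene, scaled by the size factor of the column, per 1000000. The submitters' processing notes name HISAT2, featureCounts, DESeq2 and GRCm38, but roles, versions and strand setting are not given in the sources used here. All values (100%) were whole reads within 0.02 reads.

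Columns that follow each other in sets of 4 differed by a chi-square per gene of 2.04 to 2.16, close to what sampling of paired reads gives. The first columns of different sets of the same group differed by 2.76 to 30.2. Each set was averaged and counted once. Groups were taken from the labels. For each week, limma 3.58.1 in R 4.3.3 was run two-sided with a trend on log2(FPM + 0.5), after a filter of 1 FPM in at least the number of libraries of the smaller group. All 10 genes passed in every week, among 12538 to 14807 genes. The joint fit of 14 group means covered 12330 genes. The weekly fit was run on simulated data with known changes, and the joint fit was not.

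The 10 genes, the 12 further lists and the tests were chosen with earlier results of these data known. Mesdc2 and Vimp in these lists matched no symbol. All 10 genes are named. From each further list of ER, sensor, PERK and ATF4 or heat shock genes, up to 4 genes are named. These are the genes called in most weeks, with ties by size of change. The genes named from the cell type marker and clock lists did not all follow this rule. The 10 genes most like the mean of the 10 are named as well. Other settings were a pseudocount of 0.1 or 1, a filter of 0 or 5 FPM, rescaling to equal totals and quantile normalization. Further settings were a replicate block, every column as a sample, the joint fit, edgeR 4.0.16, DESeq2 1.42.0, classes apart, and each library left out. Read-share classes were told apart by the share of reads in the third column of a set, with limits chosen after seeing the shares. Added after seeing the data were the class as a term and the averaging of LIDPAD libraries 4 and 5 of week 32. The first columns of that pair differed by a chi-square per gene of 2.76, where other pairs of that group differed by at least 16.0. The next lowest value of any group was 3.05, for LIDPAD libraries 2 and 4 of week 48. Promoter windows came from RefSeq and exon lengths from GENCODE M21 (GRCm38).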

Additional observations from a re-analysis of the deposited data

Results flagged for a closer look

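The size of the diet effect differed between weeks for Hspa5, Dnajb9, Herpud1, Creld2 and Manf, by an F test in the joint limma fit with adjusted p-values of 0.00994, 0.0239, 0.00413, 0.00244 and 0.00638. The log2 changes of Herpud1 ran from 0.95 at week 1 to -1.59 at week 32 and those of Creld2 from 1.07 at week 16 to -1.51 at week 32. The effect of the later weeks (16, 32 and 48) minus that of the earlier weeks (1, 4, 8 and 12) was -0.42 for Pdia4, -0.78 for Dnajb9 and -1.21 for Herpud1 on the log2 scale, each past the limma threshold. At week 16, which belongs to the later weeks here, 0 of the 10 genes fell. The earlier and later weeks share no read-share class, so feeding time and class cannot be told apart. In the 30 groups of gene and diet with 4 or 5 libraries, 0 libraries stood apart by Dixon's limit, which chance alone passes in about 1 group in 20.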

How the results depend on the processing

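At week 32 the falls of all 10 genes kept their sign in each of the 24 alternatives tried. The number of genes that fell was 4 after rescaling to equal totals and 5 with quantile normalization, and 7 to 10 with 1 library left out. At week 48 it was 0 to 10 with 1 library left out, 0 with the replicate block and 10 with every column as a sample. At week 1 the number that rose was 0 to 2 with 1 library left out, 0 in the joint fit, and 2 with no filter, with a filter of 5 FPM, with every column as a sample and in DESeq2. At week 12 it was 0 to 3 with 1 library left out, 3 after rescaling, 1 with quantile normalization, 2 with the block and in DESeq2, and 6 with every column. At week 16 it was 0 to 3 with 1 library left out, 3 after rescaling and with every column, 2 with quantile normalization and with the block, and 0 in DESeq2, where 1 gene fell. Genes that fell numbered 0 to 1 at weeks 12 and 16 and 0 to 5 at week 8 with 1 library left out. With every column as a sample, 4 fell at week 1, 1 rose and 1 fell at week 4, 3 fell at week 8, 1 at week 12 and 3 at week 16. Treating parts of a library as samples makes its p-values too small. Rises and falls over all genes were counted apart only as reported, after rescaling and with quantile normalization. Rises over all genes at week 12 were 1226, 1890 and 1140 in that order, and 2262, 3958 and 2078 at week 16. Counts from the other settings have no share by direction beside them. With every column, 2839, 2925, 4857, 5335, 6530 and 5729 genes were called in either direction at weeks 1, 4, 8, 12, 16 and 48. Over all genes the block called 16 at week 48 and the joint fit 12 at week 1. Later minus earlier weeks passed the test as lower in 2 to 7 of the 10 genes with 1 library left out and in 1 after rescaling. Where no cause is named here, the cause was not tested.

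The replicate block is no pairing: same-numbered libraries had correlations of deviations from -0.23 to 0.186, so they share only a number. The block changed the genes called over all genes from 250 to 383 at week 1, 38 to 368 at week 4 and 1462 to 16 at week 48. Rescaling moved the median of all genes to 0.10, 0.19, 0.20, 0.33 and 0.28 from week 8 to week 48. The split of all calls at week 32 was 2559 higher and 1251 lower as reported, 4070 and 362 after rescaling, and 1808 and 1759 with quantile normalization. It was 968 and 494 at week 48, and 2879 and 190 after rescaling. Genes called numbered 265, 40, 670, 2073, 3948, 3862 and 1181 with edgeR, and 480, 308, 1264, 2044, 3933, 4575 and 2424 with DESeq2, from week 1 to week 48.

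Signs reversed for 46 gene values, with a smallest adjusted p of 0.280 in limma, edgeR or DESeq2, and 16 of these came from settings other than leaving out a library. After rescaling, log2 changes turned to 0.035 for Hspa5 and 0.056 for Manf at week 4, to 0.036 for Hspa5, 0.088 for Pdia4 and 0.053 for Dnajb9 at week 8, and to 0.039 for Xbp1, 0.13 for Hsp90b1 and 0.099 for Pdia4 at week 16. With quantile normalization they turned to 0.17 for Hsp90b1 and 0.053 for Pdia4 at week 16 and to 0.027 for Hsp90b1 at week 48. In edgeR and DESeq2 they turned to 0.0097 and 0.012 for Manf at week 4 and to -0.052 and -0.047 for Sdf2l1 at week 16, and in DESeq2 to -0.0041 for Pdia6 at week 12. With 1 library left out, ranges that crossed 0 at week 1 were -0.20 to 0.040 for Pdia4 and -0.14 to 0.070 for Pdia6. At week 4 they were -0.36 to 0.040 for Xbp1, -0.31 to 0.25 for Hspa5, -0.11 to 0.23 for Hsp90b1, -0.028 to 0.22 for Pdia4, -0.0023 to 0.71 for Dnajb9, -0.11 to 0.24 for Sdf2l1, -0.070 to 1.16 for Creld2 and -0.25 to 0.23 for Manf. At week 8 they were -0.17 to 0.22 for Xbp1, -0.33 to 0.17 for Hspa5, -0.21 to 0.15 for Pdia4, -0.46 to 0.33 for Dnajb9, -0.82 to 0.067 for Herpud1, -0.89 to 0.12 for Creld2 and -0.46 to 0.087 for Manf. At week 12 they were -0.0895 to 0.096 for Pdia6 and -0.012 to 0.91 for Dnajb9, and at week 16 -0.23 to 0.081 for Hsp90b1, -0.26 to 0.11 for Pdia4 and -0.30 to 0.37 for Sdf2l1.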
